A study of Homo sapiens with 8 samples.

Results

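Of 14884 genes measured in 8 clones of the human prostate cancer line PC-3, 99 carry symbols of interleukins, chemokines or their receptors. Of the 99, 27 had a mean log2 value above 6, and 4 are of other kinds (IL4I1, IL10RB-DT, CCL15-CCL14 and CXCR2P1). The members were all genes whose single annotated symbol begins with IL, CCL, CXCL, CCR or CXCR and a number. CCL20, CCL2, CXCL8, CXCL2 and IL11 and 2 antisense symbols were left out. Each member was read by 1 probe set, so the choice of the probe set with the highest mean had no effect here. PC-3 is an androgen-independent line. Clones 17, 24, 5 and 6 carried the RWDD4 gene, whose product has an RWD domain, in a p-Lenti vector, and clones 2, 3, 4 and 5 carried that vector empty. All 8 had been selected with blasticidin, spelled blastocydin in the labels, and each clone is a single isolate measured on 1 array. Differences between the groups therefore include whatever parts 1 clone from another. The promoter that drives RWDD4 is not given in the sources used here. RWDD4 itself lay between 9.87 and 10.46 among RWDD4 clones and between 6.64 and 7.996 among control clones, without overlap.

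Interleukins and chemokines are secreted proteins. An interleukin binds a receptor of paired or multiple chains, and many of these receptors pass the signal through JAK kinases and STAT factors, while the IL-1 and IL-17 receptor families use adaptor proteins and kinases that lead to NF-kappa-B and MAP kinases. Chemokines bind receptors with 7 membrane-spanning helices that couple to Gi proteins and direct cell migration. Epithelial tumour cells are known to make some of these ligands themselves, among them the neutrophil-attracting CXC chemokines.

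The data were log2 values deposited after RMA, a method that corrects background, normalizes arrays to each other and summarises each probe set. Such values compare a gene between clones and do not rank different genes by transcript number. The value of 6 therefore only parts brighter from dimmer probe sets. Just above it lay CXCL3, with a mean over all 8 clones of 6.01, and IL37 at 6.09, and just below it CCL27 at 5.98 and IL9R at 5.91. The median probe set on the array had a mean of 4.93, and 55 members lay above that level. No background level was measured here. Differences are RWDD4 minus control in log2 units, tested with limma over all 14884 genes, and a member is said to have risen or fallen where its Benjamini-Hochberg adjusted p was under 0.05. Values of single clones are always listed in the order 17, 24, 5 and 6 for RWDD4 and 2, 3, 4 and 5 for control.

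Of the 99 members 4 rose and 23 fell, which is 4.04% and 23.2%, while among all genes 25.1% rose and 21.6% fell. The median difference was -0.12 over the members and -0.083 over all genes. Among the 27 brighter members 3 rose and 14 fell (11.1% and 51.9%), against 38.4% and 28.7% of all genes above 6, and the median differences were -0.34 and 0.028. Among the 72 dimmer members 1 rose and 9 fell (1.39% and 12.5%), against 11.1% and 14.1% of all genes at or below 6. There the median differences were -0.096 and -0.11. The lower quartile of all probe sets lay at 3.525 to 3.532 in the RWDD4 clones and at 3.561 to 3.616 in the control clones. The part of this offset in the falls of dim members was not tested. Groups did not overlap in 26 members, and in 44.8% of all genes. Above 6 they did not overlap in 15 of the 27 members, and in 4863 of all 7658 genes. In this fit all 4 members that rose were interleukin receptors. No ligand and no chemokine receptor passed the test upward in it, among 26 interleukin ligands, 31 chemokine ligands and 14 chemokine receptors. With the trend over genomic length removed from each array, the chemokine receptor CXCR4 did pass upward (0.80, adjusted p 0.0413). Under some other settings up to 4 dimmer members rose, and their kinds are not given here.

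**Figure D1:**
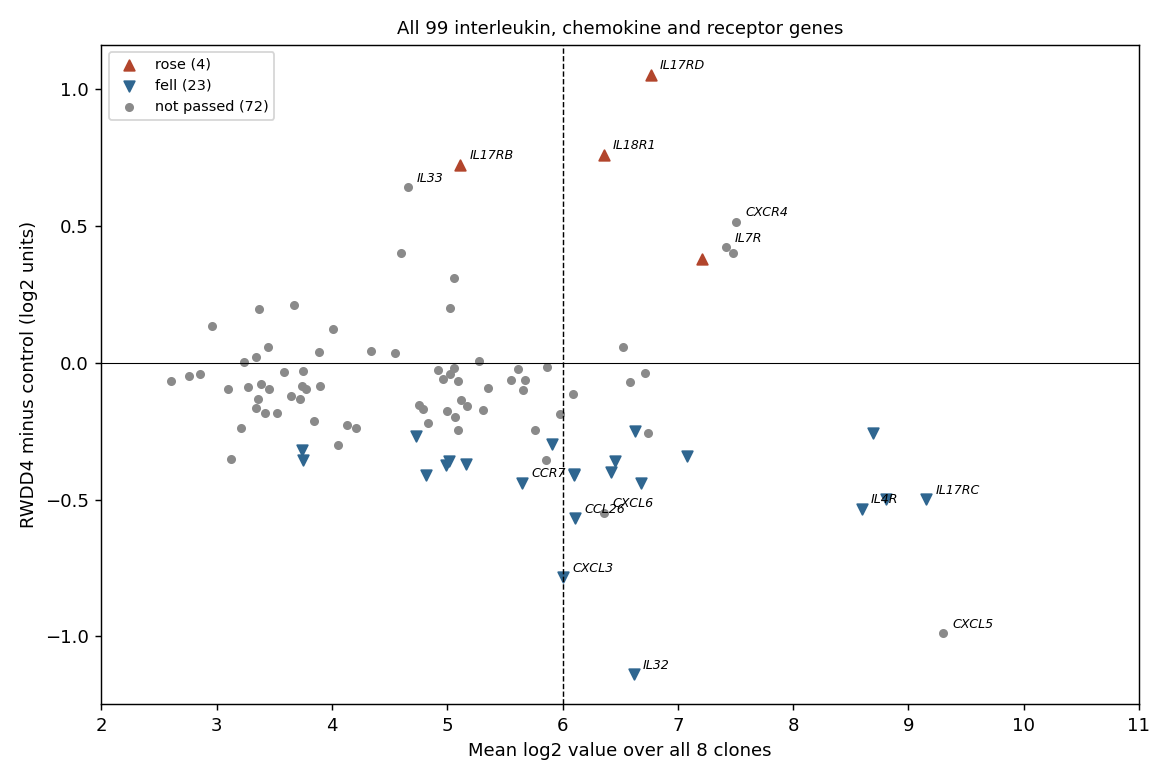
Each of the 99 members is placed by its mean log2 value over all 8 clones (horizontal axis) and by its difference, RWDD4 minus control in log2 units (vertical axis); triangles are members with an adjusted p under 0.05 and the dashed line marks 6. The 4 rises and the largest falls lie apart from a band of dim members close to 0.

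The balance of the calls depended on the scaling. After cyclic loess 7 members rose and 11 fell, after median centring 5 rose and 15 fell, and after quantile normalization 5 rose and 22 fell. The median difference of all genes moved too, from -0.083 to -0.037 after median centring, -0.069 after quantile normalization and -0.00042 after cyclic loess. Shares of all genes called are not given for these scalings or for the fits without 1 clone. The counts are therefore not set against changes of the whole table. Leaving out 1 clone moved the falls too, to 13 without RWDD4 clone 5 and 13 without RWDD4 clone 6 and to 15 without RWDD4 clone 17 or control clone 3, and 2 members rose without RWDD4 clone 6 or control clone 4. The clones of a group also differed from each other along 1 leading axis over all genes. When the fit held the place of every array on it, 0 of the 99 members passed, 8 had an unadjusted p under 0.05, and 1 gene of all 14884 passed. Control clone 2 lay farthest out on that axis, and the groups did not overlap on it. A further setting removed from each array the trend of its values over the genomic length of genes, called the span trend here. The cause was not tested. Apart from that fit, 7 members kept their call under each of the 17 other settings: IL17RD, IL18R1, IL4R, IL32, CXCL3, IL17D and IL21R. The limits of the other calls are given with them.

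Epithelial markers were bright in this epithelial line. The keratins KRT18 and KRT19 had means of 10.81 and 10.51, and KRT8 and EPCAM of 6.64 and 6.46. KRT18 had 2 probe sets, and only the one with the higher mean is given. Of the 4 markers, KRT19 fell by 0.54, KRT18 by 0.40 and KRT8 by 0.28, and EPCAM lay at 0.13 and did not pass. The falls are 75% of the 4, against 28.7% of all genes above 6. The mean of the 4 was between 8.41 and 8.52 in RWDD4 clones and between 8.67 and 8.87 in control clones. The prostate markers KLK2 and KLK3 had means of 5.79 and 5.78 and did not pass, with differences of -0.077 and -0.052. Of the 15 leukocyte markers listed 7 were measured, 6 of them at or below 6, with CD8A at 6.91. The mean of the 7 was between 4.94 and 5.01 in RWDD4 clones and between 5.21 and 5.40 in control clones. Of the 7, 5 fell (71.4%, against 21.6% of all genes). All 5 were among the 6 at or below 6, where 14.1% of all genes fell. CD14 fell by 0.42, NKG7 by 0.39, CD2 by 0.32, CSF1R by 0.30 and CD4 by 0.28. Most epithelial and leukocyte markers thus fell, while EPCAM, CD8A (-0.26), LYZ (-0.19), KLK2 and KLK3 did not pass. Falls of dim interleukin and chemokine genes were of similar size to those of the markers. Whether the falls of markers and members have a common source was not tested. Each sample was a clone of the PC-3 line, so the markers are not read here as numbers of cells of a type.

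Of 21 interleukin receptors 4 rose and 6 fell (19.0% and 28.6%), shares near the 25.1% and 21.6% of all genes. Of the 9 with a mean above 6, 3 rose and 4 fell (33.3% and 44.4%), against 38.4% and 28.7% of all genes above 6. Within the IL-17 receptor family, IL17RD and IL17RB rose while IL17RA, IL17RC and IL17REL fell. IL18R1 and IL6R also rose and IL4R fell.

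IL17RD, also known as SEF, encodes a receptor of the IL-17 family that restrains signalling from fibroblast growth factor receptors. It read 7.45, 6.87, 7.32 and 7.52 in the RWDD4 clones and 6.22, 6.04, 6.30 and 6.40 in the control clones. Every RWDD4 clone lay above every control clone, with clone 24 the lowest of its group. The gene averaged 7.29 ± 0.29 in the RWDD4 clones and 6.24 ± 0.15 in the control clones (SD, n = 4 each), a rise of 2.07-fold. The difference was 1.05 (SE 0.14), with an adjusted p of 0.000272, the largest rise of the 99 members. It lay between 0.76 and 1.19 over the alternatives.

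IL17RB, a receptor chain for IL-25 and IL-17B, was dimmer. It read 5.16, 5.54, 5.33 and 5.87 in the RWDD4 clones and 5.13, 4.29, 4.44 and 5.14 in the control clones. The groups did not overlap, but control clones 2 and 5 lay just under the lowest RWDD4 clone, clone 17. The difference was 0.72 (SE 0.22), with an adjusted p of 0.0193. It did not pass without RWDD4 clone 6 (0.59, adjusted p 0.0588) or without control clone 4 (0.62, adjusted p 0.0588). Its ligands IL25 and IL17B lay at -0.094 and -0.021 and did not pass.

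IL17RA is the chain shared by receptors for several IL-17 cytokines. It read 8.32, 8.63, 8.54 and 8.74 in the RWDD4 clones and 8.88, 8.87, 8.94 and 9.53 in the control clones. Control clone 5 lay apart at the top of its group, and no clones of the 2 groups overlapped. The difference was -0.50 (SE 0.16), with an adjusted p of 0.0232, a 1.41-fold fall. Without RWDD4 clone 17 the adjusted p was 0.0657 at -0.42, and without RWDD4 clone 5 it was 0.0533 at -0.49.

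IL17RC pairs with IL17RA to bind IL-17A and IL-17F. It read 9.18, 9.04, 8.84 and 8.57 in the RWDD4 clones and 9.75, 9.25, 9.38 and 9.25 in the control clones. The highest RWDD4 clone, clone 17, lay just under the lowest control clone. The difference was -0.50 (SE 0.15), with an adjusted p of 0.0212. It did not pass without RWDD4 clone 5 (-0.48, adjusted p 0.0548) or without RWDD4 clone 6 (-0.39, adjusted p 0.0605).

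IL17REL, a gene named for its likeness to IL17RE, read 6.28, 5.96, 5.75 and 5.60 in the RWDD4 clones and 6.33, 6.35, 6.14 and 6.41 in the control clones. RWDD4 clone 17 lay within the control range and the other RWDD4 clones below it. The difference was -0.41 (SE 0.14), with an adjusted p of 0.035, and the call ended on leaving out RWDD4 clone 24, 5 or 6 or control clone 2, 3 or 5, with adjusted p values of 0.0537 to 0.0988 and differences of -0.43 to -0.31. It also ended after median centring, cyclic loess, array weights and a fit over all probe sets (adjusted p 0.0530 to 0.0835). IL17RE, a chain of the receptor for IL-17C and a neighbour of IL17RC on chromosome 3, lay at -0.25 with an adjusted p of 0.0645 and did not pass.

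IL18R1 encodes the ligand-binding chain of the IL-18 receptor. It read 6.57, 6.72, 6.98 and 6.68 in the RWDD4 clones and 5.52, 6.19, 6.01 and 6.19 in the control clones. All RWDD4 clones lay above all control clones, among which clone 2 was lowest. The gene averaged 6.74 ± 0.17 in the RWDD4 clones and 5.98 ± 0.32 in the control clones (SD, n = 4 each), a 1.69-fold rise, with a difference of 0.76 (SE 0.15), with an adjusted p of 0.00264. The other parts of the IL-18 system did not pass: IL18RAP, the second chain, lay at -0.03 with a mean of 3.75, the cytokine IL18 at 0.057 and IL18BP, its soluble inhibitor, at -0.037. IL18R1 stands on chromosome 2 beside IL1RL2, IL1RL1 and IL18RAP. The differences of these neighbours were -0.21, 0.40 and -0.03, and none of them passed.

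IL6R encodes the IL-6-binding chain that signals with gp130. It read 7.32, 7.32, 7.30 and 7.64 in the RWDD4 clones and 6.84, 7.02, 6.97 and 7.25 in the control clones. RWDD4 clone 6 was the highest of all, and the lowest RWDD4 clone lay just above control clone 5. The difference was 0.38 (SE 0.12), with an adjusted p of 0.0216, a 1.30-fold rise. It did not pass after quantile normalization (0.20, adjusted p 0.145), with the trend over genomic span removed (0.11, adjusted p 0.415), without RWDD4 clone 6 (0.30, adjusted p 0.0624) or without control clone 4 (0.36, adjusted p 0.0530).

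IL4R, the chain shared by the receptors for IL-4 and IL-13, read 8.41, 8.57, 8.15 and 8.18 in the RWDD4 clones and 8.79, 8.88, 8.98 and 8.80 in the control clones. The control clones lay close together and above every RWDD4 clone. It averaged 8.33 ± 0.20 in the RWDD4 clones and 8.86 ± 0.09 in the control clones (SD, n = 4 each), and the difference was -0.53 (SE 0.11), with an adjusted p of 0.00307, a 1.45-fold fall. The ligand genes IL4 and IL13 lay at means of 3.73 and 4.96 and did not pass, at -0.13 and -0.059.

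**Figure D2:**
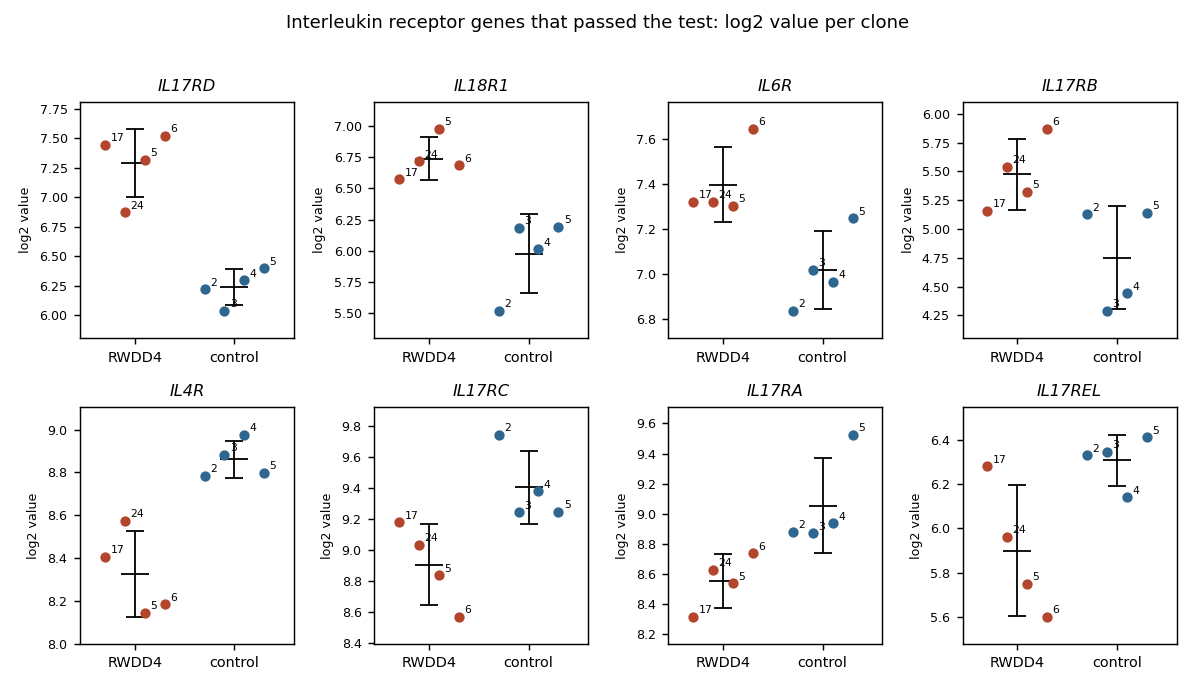
Log2 values (vertical axes, each with its own range) of 8 interleukin receptor genes that passed the test, per clone, RWDD4 clones in red and control clones in blue, with the clone number beside each point; bars are the mean ± SD of 4 clones. IL17RD, IL18R1, IL6R and IL17RB are higher in the RWDD4 clones, and only IL17REL shows a clone of one group within the range of the other. Choosing genes that passed the test favours groups that lie apart.

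The other bright interleukin receptors varied as much within the groups as between them. IL7R, which binds IL-7 and TSLP, read 7.49, 7.89, 7.48 and 7.65 in the RWDD4 clones and 6.41, 8.45, 6.94 and 7.02 in the control clones. Control clone 3 was the highest of all 8 and control clone 2 the lowest, and the difference of 0.42 (adjusted p 0.33) did not pass. Without control clone 3 it was 0.84 with an adjusted p of 0.00322. IL1RL1, the receptor for IL-33, read 7.57, 8.49, 7.998 and 6.64 in the RWDD4 clones and 6.59, 7.73, 7.36 and 7.43 in the control clones. Its difference was 0.40 (adjusted p 0.372), with RWDD4 clone 24 at the top and RWDD4 clone 6 beside control clone 2 at the bottom.

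Among the 12 dimmer receptors IL21R, which binds IL-21, and IL9R, which binds IL-9, fell by 0.36 and 0.30. IL9R did not pass without RWDD4 clone 24 or 5 or without control clone 2 (adjusted p 0.0558 to 0.0687, differences -0.28 to -0.24), nor after cyclic loess (0.0949) or with the span trend removed (0.109). The accessory chain IL1RAP lay at 0.40 with an adjusted p of 0.0578, and IL31RA at 0.31 with 0.114. IL20RB, IL23R, IL1RL2, IL18RAP, IL1RAPL1 and IL1RAPL2 did not pass either, at -0.24 to 0.039. Chains whose symbol the probe annotation does not list, among them IL6ST (gp130), IL1R1, IL10RB, IL13RA1, IL2RG, IL15RA and IL11RA, were not analysed here.

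Among the interleukin ligands 5 of 26 fell (19.2%, near the 21.6% of all genes) and none rose. Of the 6 with a mean above 6, IL32, IL17D, IL17C and IL27 fell (66.7%, against 28.7% of all genes above 6). IL18 and IL37 did not pass, at 0.057 and -0.11. IL1A, IL1B and IL6 were not analysed here.

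IL32 encodes a pro-inflammatory cytokine that human cells make and that mice lack. It read 5.64, 6.65, 5.82 and 6.10 in the RWDD4 clones and 7.22, 7.78, 6.92 and 6.83 in the control clones. RWDD4 clone 24 was the highest of its group and still lay under every control clone. The gene averaged 6.05 ± 0.44 in the RWDD4 clones and 7.19 ± 0.43 in the control clones (SD, n = 4 each), and the difference was -1.14 (SE 0.24), with an adjusted p of 0.00346, a 2.20-fold fall and the largest of the 99 members. It lay between -1.34 and -0.86 over the alternatives.

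IL17D and IL17C are members of the IL-17 cytokine family, and IL-17C is known as an epithelial product. IL17D read 6.39, 6.16, 6.15 and 6.20 in the RWDD4 clones and 6.68, 6.47, 6.59 and 6.76 in the control clones. IL17C read 6.49, 6.28, 6.20 and 6.13 in the RWDD4 clones and 6.70, 6.50, 6.74 and 6.60 in the control clones. In both genes RWDD4 clone 17 was the highest of its group and came close to control clone 3, the lowest control clone, without passing it. The differences were -0.40 (SE 0.10), with an adjusted p of 0.0071 for IL17D and -0.36 (SE 0.10), with an adjusted p of 0.0154 for IL17C. With the trend over genomic span removed IL17C lay at -0.079 (adjusted p 0.521) and did not pass. IL17B, IL17A, IL17F and IL25 of the same family had means of 4.21 to 5.62 and did not pass.

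IL27 encodes the p28 subunit of IL-27, whose partner is EBI3. It read 7.05, 6.99, 7.002 and 6.60 in the RWDD4 clones and 7.18, 7.23, 7.40 and 7.19 in the control clones. RWDD4 clone 6 lay apart below the others, and the groups did not overlap. The difference was -0.34 (SE 0.12), with an adjusted p of 0.0328. The call ended without RWDD4 clone 6 (-0.24, adjusted p 0.0805) and without control clone 3 or 4 (0.0530 and 0.0889), and also after median centring, cyclic loess, a fit over all probe sets and removal of the span trend (0.0560 to 0.455). EBI3 lay at -0.12 and did not pass.

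Of the 20 dimmer interleukin genes IL31, a cytokine linked to itch, fell by 0.36 from a low level, with a mean of 3.57 in the RWDD4 clones and 3.93 in the control clones. It did not pass without RWDD4 clone 17, 5 or 6 or control clone 4 (adjusted p 0.0535 to 0.0595, differences -0.34 to -0.32), after cyclic loess (0.0676) or with the span trend removed (0.599). IL33, an alarmin released from the nucleus, varied most within the groups, as seen once its values were known. It read 3.88, 6.45, 5.10 and 4.48 in the RWDD4 clones and 3.80, 5.04, 3.92 and 4.58 in the control clones. RWDD4 clone 24 stood well above all others, and the difference, 0.64 (SE 0.47), with an adjusted p of 0.284, did not pass. The same clone was the highest of the 8 for IL1RL1. The other 18, among them IL10, IL15, IL24 and IL34, had differences of -0.24 to 0.21 and did not pass.

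Of the 31 chemokine ligands 8 fell (25.8%, against 21.6% of all genes) and none rose. All 9 with a mean above 6 had a negative difference, as had 3725 of all 7658 genes above 6. With the span trend removed CCL3L1 and CXCL16 turned positive, at 0.033 and 0.18. Of the 9, CXCL3, CCL26, CCL5, CCL22 and CCL3L1 fell (55.6%, against 28.7% of all genes above 6). CXCL5, CXCL6, CCL25 and CXCL16 did not pass.

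CXCL3, CXCL5 and CXCL6 belong to the CXC chemokines that attract neutrophils through CXCR2, and lie in 1 cluster on chromosome 4 together with CXCL8 and CXCL2. The 250 bases before the start of each gene are shown with those of IL32, the member with the largest fall, because all 4 hold a kappa-B motif, the kind of site that NF-kappa-B binds. They come from RefSeq (GRCh38.p14) and are written 5′ to 3′ on the gene's strand. Capitals mark matches to GGGANNTTCC on either strand. In the 3 chemokine genes a match on each strand overlaps the other by all but 1 base.

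CXCL3, chr4:74038690-74038939, minus strand: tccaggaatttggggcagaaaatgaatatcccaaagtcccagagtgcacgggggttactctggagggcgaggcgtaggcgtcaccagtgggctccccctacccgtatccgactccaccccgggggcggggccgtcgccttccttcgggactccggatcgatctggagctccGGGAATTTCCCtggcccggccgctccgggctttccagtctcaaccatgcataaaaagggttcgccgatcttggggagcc

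CXCL5, chr4:73998678-73998927, minus strand: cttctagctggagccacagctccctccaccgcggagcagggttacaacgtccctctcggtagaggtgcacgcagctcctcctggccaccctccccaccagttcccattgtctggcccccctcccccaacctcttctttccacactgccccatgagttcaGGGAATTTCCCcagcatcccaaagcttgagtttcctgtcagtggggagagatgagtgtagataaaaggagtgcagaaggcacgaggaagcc

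CXCL6, chr4:73836428-73836677, plus strand: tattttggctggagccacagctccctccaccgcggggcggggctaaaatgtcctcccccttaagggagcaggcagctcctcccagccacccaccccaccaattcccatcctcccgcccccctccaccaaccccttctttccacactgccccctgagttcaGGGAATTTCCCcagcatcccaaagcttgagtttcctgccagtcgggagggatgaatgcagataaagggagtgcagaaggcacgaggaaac

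IL32, chr16:3065153-3065402, plus strand: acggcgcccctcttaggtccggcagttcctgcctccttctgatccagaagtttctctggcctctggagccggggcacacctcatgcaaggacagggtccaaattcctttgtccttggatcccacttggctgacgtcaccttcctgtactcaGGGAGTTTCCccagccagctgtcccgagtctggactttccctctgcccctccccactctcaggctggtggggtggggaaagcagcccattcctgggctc

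The match begins 79 bases before the start in CXCL3, 91 in CXCL5, 90 in CXCL6 and 99 in IL32. The promoters of CXCL5 and CXCL6 shared 214 of 251 aligned positions (85.3%), and CXCL3 shared 52.3% and 53.5% with them. IL32, on another chromosome, shared 52.1% with CXCL3, 51.5% with CXCL5 and 50.5% with CXCL6. The values of CXCL3 with CXCL5 and CXCL6 are thus near those of IL32. Of the 99 members 74 were matched to a promoter in the table. The kappa-B motif was in 7 of these 74 (9.46%), in 4 of the 20 with a mean above 6, and in 389 of all 27305 promoters (1.42%). The other 3 were CCL1, CXCL10 and CXCL11. It was in 2 of the 9 brighter members that fell and were matched to a promoter (22.2%), CXCL3 and IL32, and in 0 of the 3 that rose. That share is near the 20% of all 20 brighter members. The other brighter members with the motif, CXCL5 and CXCL6, did not pass. A STAT motif (TTCNNNGAA) was in 9 of the 74 (12.2%), in 3 of the 20 brighter members and in 6.78% of all promoters. An AP-1 motif (TGANTCA) was in 11 of the 74 (14.9%), in 1 of the 20 and in 6.60% of all promoters. Both were searched on both strands. The kappa-B motif was chosen after the promoters of this cluster had been looked up, and a match is a description of the letters only.

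CXCL3 read 5.73, 5.61, 5.17 and 5.95 in the RWDD4 clones and 6.57, 6.43, 6.25 and 6.33 in the control clones. All RWDD4 clones lay below all control clones, with RWDD4 clone 5 the lowest. The gene averaged 5.61 ± 0.33 in the RWDD4 clones and 6.40 ± 0.14 in the control clones (SD, n = 4 each), and the difference was -0.78 (SE 0.15), with an adjusted p of 0.00211, a 1.72-fold fall.

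CXCL5 read 8.97, 9.02, 7.62 and 9.62 in the RWDD4 clones and 9.28, 10.37, 10.35 and 9.18 in the control clones. RWDD4 clone 6 lay above control clones 2 and 5, while RWDD4 clone 5 stood well below the others. The difference of -0.99 (SE 0.41) was thus larger than that of CXCL3 but did not pass, at an adjusted p of 0.0685. It passed after quantile normalization, with array weights, and without RWDD4 clone 6, control clone 2 or control clone 5, with values between -1.47 and -0.59 over all settings.

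CXCL6 read 5.69, 6.22, 5.91 and 6.52 in the RWDD4 clones and 6.10, 6.27, 7.16 and 6.998 in the control clones. Control clones 4 and 5 were high, and control clones 2 and 3 lay among the RWDD4 clones. The difference was -0.55 with an adjusted p of 0.0942, and it passed with array weights and without control clone 2.

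Of the genes left out by the selection, CCL20, CXCL8, CXCL2 and IL11 fell by 2.19, 1.46, 0.86 and 0.74, and CCL2 lay at -0.51 and did not pass. CXCL2, the neighbour of CXCL3, averaged 7.41 ± 0.20 in RWDD4 clones and 8.27 ± 0.31 in control clones (SD, n = 4 each), without overlap. CXCL3 and CXCL2 are close paralogs, so a probe set may read part of the other transcript.

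The CC chemokines that fell did so by less than CXCL3. CCL26, or eotaxin-3, a ligand of CCR3, read 5.31, 6.30, 5.81 and 5.88 in the RWDD4 clones and 6.69, 6.67, 6.17 and 6.05 in the control clones. RWDD4 clone 24 lay above control clones 4 and 5. The difference was -0.57 (SE 0.21), with an adjusted p of 0.0474. The call ended on leaving out RWDD4 clone 17, 5 or 6 or control clone 2, 3 or 4 (adjusted p 0.0535 to 0.122, differences -0.64 to -0.40), and after median centring, cyclic loess, array weights or a fit over all probe sets (0.0701 to 0.0984).

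CCL5, or RANTES, a chemokine that attracts T cells and monocytes, read 6.28, 6.68, 6.20 and 6.68 in the RWDD4 clones and 6.82, 7.33, 6.70 and 6.75 in the control clones. RWDD4 clones 24 and 6 lay just under control clone 4, and control clone 3 was the highest. The difference was -0.44 (SE 0.16), with an adjusted p of 0.0474. It did not pass without RWDD4 clone 17 or 5 or control clone 2, 3 or 5 (adjusted p 0.0519 to 0.131, differences -0.49 to -0.29), nor after median centring, cyclic loess, a fit over all probe sets or removal of the span trend (0.0817 to 0.283).

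CCL22, a ligand of CCR4, read 6.03, 5.67, 5.94 and 5.93 in the RWDD4 clones and 6.15, 6.34, 6.35 and 6.38 in the control clones. The groups did not overlap, with RWDD4 clone 24 the lowest of all. The difference was -0.41 (SE 0.10), with an adjusted p of 0.00791, and -0.19 (adjusted p 0.187) with the span trend removed. CCL17, the other ligand of CCR4, lay at -0.065 and did not pass.

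CCL3L1, a copy of the macrophage chemokine CCL3, read 6.51, 6.48, 6.51 and 6.53 in the RWDD4 clones and 6.73, 6.57, 6.85 and 6.87 in the control clones. The RWDD4 clones lay close together and below all control clones. The difference was -0.25 (SE 0.09), with an adjusted p of 0.0459. The call ended without any of the 4 RWDD4 clones or without control clone 2, 4 or 5 (adjusted p 0.0594 to 0.111, differences -0.26 to -0.21), and under 5 other settings (0.0600 to 0.798), among them removal of the span trend, where the difference was 0.033. CCL3 itself lay at -0.36 with an adjusted p of 0.0603, and since the copies are nearly identical in sequence their probe sets may share signal.

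CCL25, a ligand of CCR9, read 7.02, 6.58, 6.35 and 6.51 in the RWDD4 clones and 7.23, 6.93, 6.57 and 6.74 in the control clones. The groups overlapped, and the difference of -0.26 (adjusted p 0.23) did not pass. CXCL16, a membrane-bound ligand of CXCR6, lay at -0.071 and did not pass.

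**Figure D3:**
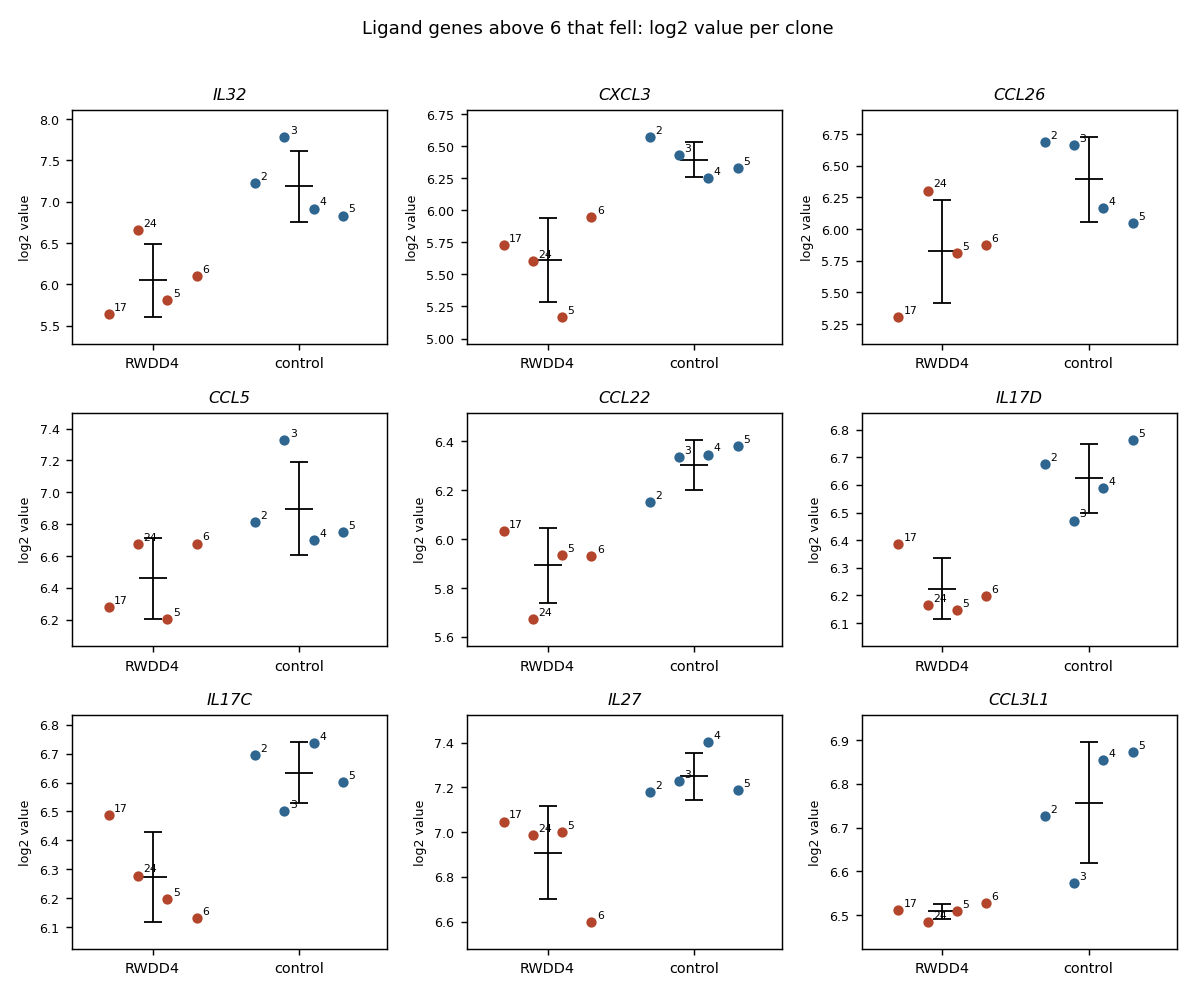
Log2 values (vertical axes, each with its own range) of the 9 ligand genes with a mean above 6 that fell, per clone, RWDD4 clones in red and control clones in blue, with the clone number beside each point; bars are the mean ± SD of 4 clones. The groups are apart in all but CCL26, where RWDD4 clone 24 lies above control clones 4 and 5. The genes are shown because they passed the test, which favours groups that lie apart.

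Among the 22 dimmer chemokine ligands CCL24, CCL1 and CXCL14 fell. CCL24, or eotaxin-2, read 4.98, 4.50, 4.43 and 4.53 in the RWDD4 clones and 5.04, 5.18, 4.91 and 4.95 in the control clones. RWDD4 clone 17 lay among the control clones. The difference was -0.41 (SE 0.13), with an adjusted p of 0.0229, and it did not pass without RWDD4 clone 24, 5 or 6 or control clone 3 (adjusted p 0.0572 to 0.0698, differences -0.38 to -0.35), after cyclic loess (0.0913) or with the span trend removed (0.111).

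CCL1, the ligand of CCR8, read 5.07, 4.76, 4.74 and 4.65 in the RWDD4 clones and 5.11, 5.33, 5.04 and 5.23 in the control clones. RWDD4 clone 17 lay between the lowest control clones. The difference was -0.38 (SE 0.11), with an adjusted p of 0.0198, and it did not pass without RWDD4 clone 5 or 6 or control clone 3 (adjusted p 0.0501 to 0.0598, differences -0.35 to -0.32), after cyclic loess (0.0941) or with the span trend removed (0.570). CXCL14 fell by 0.27, and lost the call without RWDD4 clone 17, 5 or 6 or control clone 3 or 4 (adjusted p 0.0563 to 0.104, differences -0.28 to -0.21) and under 5 other settings (0.0604 to 0.700). The remaining 19, which include the interferon-inducible CXCL9, CXCL10 and CXCL11 and the stromal CXCL12, had differences of -0.36 to 0.20 and did not pass. CXCL10 averaged 3.24 in the RWDD4 clones and 3.23 in the control clones.

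Of the 14 chemokine receptors 2 fell (14.3%, against 21.6% of all genes) and 0 rose, and 1 had a mean above 6. CXCR4, the receptor for CXCL12, read 7.59, 8.21, 7.84 and 7.41 in the RWDD4 clones and 6.44, 7.004, 7.71 and 7.83 in the control clones. Control clones 4 and 5 lay among the RWDD4 clones, and control clone 2 was the lowest. The difference of 0.52 (SE 0.29, adjusted p 0.16) did not pass. It passed only with the trend over genomic span removed, among the settings tried.

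CCR7, the receptor for CCL19 and CCL21, was dimmer. It read 5.53, 5.38, 5.57 and 5.25 in the RWDD4 clones and 6.01, 5.78, 6.03 and 5.66 in the control clones. Every RWDD4 clone lay below every control clone. The difference was -0.44 (SE 0.12), with an adjusted p of 0.0103, and -0.27 (adjusted p 0.0593) with the span trend removed. CXCR3, the receptor for CXCL9, CXCL10 and CXCL11, fell by 0.37, and lay at -0.081 (adjusted p 0.480) with the span trend removed. CXCR1 and CXCR2, the receptors for the neutrophil-attracting CXC chemokines, had means of 4.13 and 4.92 and did not pass, at -0.23 and -0.028. The other 9 receptors, CCR1, CCR2, CCR4, CCR6, CCR8, CCR9, CCR10, CXCR5 and CXCR6, did not pass either, at -0.30 to 0.021.

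The last members are inhibitors and symbols of other kinds. IL1RN, the natural antagonist of the IL-1 receptor, fell by 0.32, with means of 3.58 in the RWDD4 clones and 3.90 in the control clones. It lost the call without RWDD4 clone 17, 5 or 6 or control clone 3, 4 or 5 (adjusted p 0.0527 to 0.109, differences -0.33 to -0.25) and under 4 other settings (0.0604 to 0.132). IL36RN, the antagonist of the IL-36 receptor, lay at -0.018. IL4I1, a secreted oxidase of aromatic amino acids that owes its name to induction by IL-4, read 8.45, 8.74, 8.62 and 8.47 in the RWDD4 clones and 8.88, 8.76, 8.79 and 8.87 in the control clones. RWDD4 clone 24 lay just under the lowest control clone. Its difference was -0.26 (SE 0.09), with an adjusted p of 0.0438, and the call ended without RWDD4 clone 17, 5 or 6 or any control clone (0.0507 to 0.113, differences -0.28 to -0.22) and under 4 other settings (0.0535 to 0.0947). The non-coding IL10RB-DT and CCL15-CCL14 and the pseudogene CXCR2P1 had means of 3.39 to 4.83 and did not pass.

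**Figure D4:**
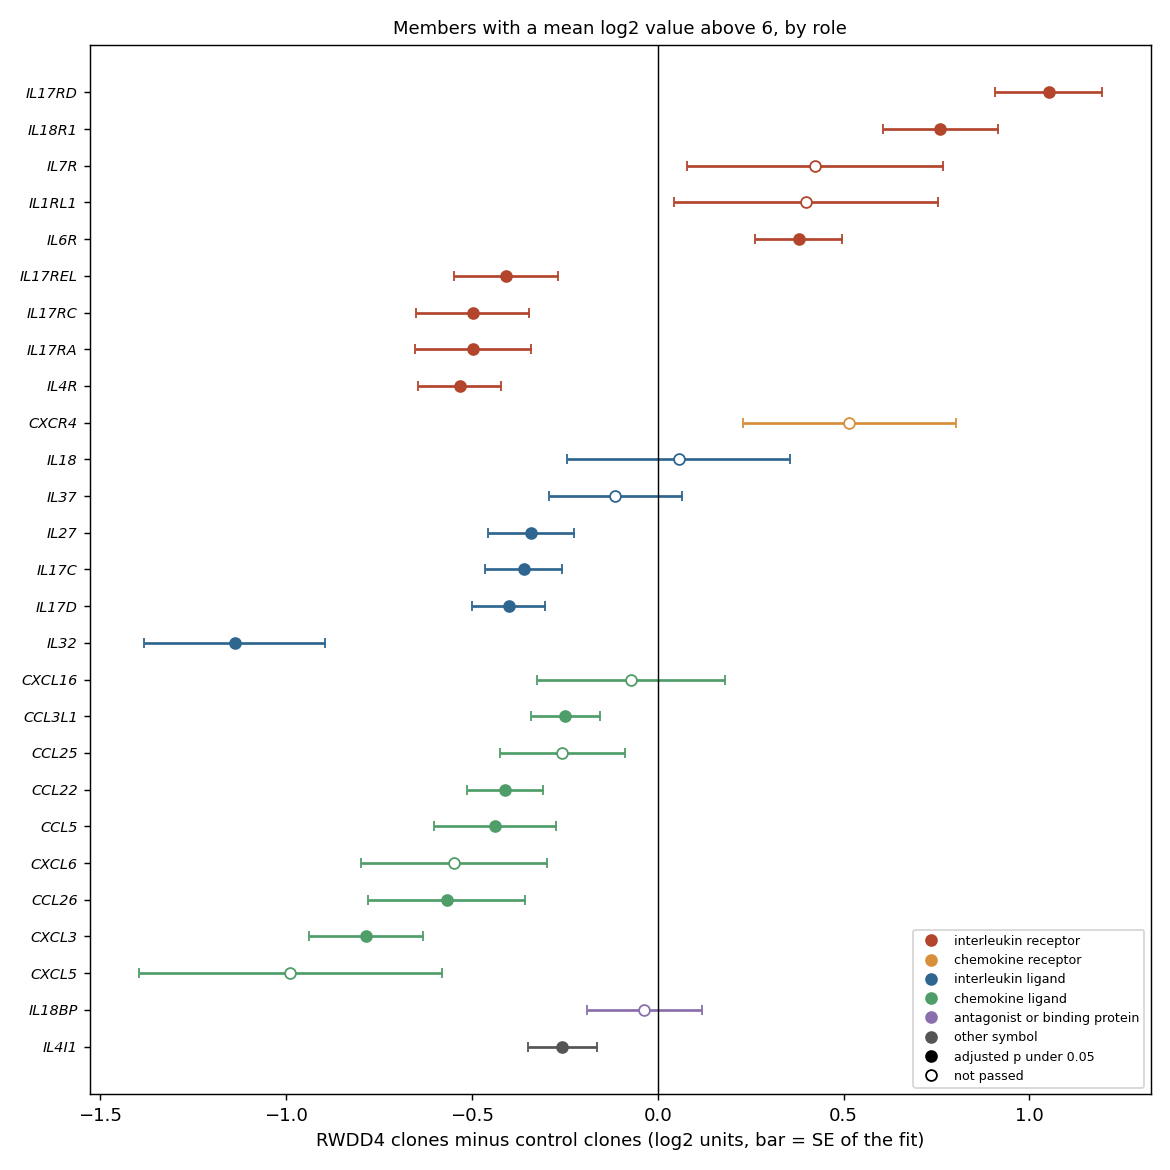
Difference between RWDD4 and control clones in log2 units (points) with its standard error from the fit (bars) for the 27 members with a mean log2 value above 6, coloured by role; filled points have an adjusted p under 0.05. Interleukin receptors lie on both sides of 0, while all 9 chemokine ligands lie below it.

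No clone alone set the order within a group. Of the 27 brighter members RWDD4 clone 6 was the highest of its group in 11 and the lowest in 6, RWDD4 clone 24 in 8 and 3, RWDD4 clone 17 in 7 and 7, and RWDD4 clone 5 in 1 and 11. Control clone 5 was the highest of its group in 9 and the lowest in 3, control clone 3 in 8 and 8, control clone 4 in 5 and 5, and control clone 2 in 5 and 11. The spread within the groups, pooled over both, had a median SD of 0.15 over the members and 0.16 over all genes, and was largest for IL33 (0.88), CXCL5 (0.76), IL1RL1 (0.65), IL7R (0.63) and IL18 (0.55).

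Genes that carry the signal of these receptors were counted from lists. Some of them, among them SOCS3, TAB1 and TAB3, had 2 probe sets, and only the one with the higher mean is given. Among JAK kinases, STAT factors and their inhibitors 16 of 26 listed genes were measured, of which 5 rose and 2 fell (31.2% and 12.5%, against 25.1% and 21.6% of all genes), with a median difference of -0.11. The falls numbered 8 with the span trend removed, 4 after quantile normalization and 1 without RWDD4 clone 5. JAK1, which serves gp130, IL-4 and IL-7 receptors, rose by 1.18 and the dimmer JAK2 (mean 5.01) by 0.66, while TYK2 fell by 0.34. The SOCS genes, feedback inhibitors of cytokine signalling, were split: SOCS4, SOCS6 and SOCS5 rose by 1.79, 1.51 and 1.02 and SOCS3 fell by 0.87. SOCS3 read 8.12, 8.32, 7.67 and 8.09 in the RWDD4 clones and 9.21, 8.90, 8.85 and 8.69 in the control clones, with no overlap. STAT3, STAT4, STAT5A and STAT5B had means of 3.72 to 4.78, under the 4.93 of the median probe set. They did not pass, at -0.44 to -0.059.

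Of 17 relatives of the IL-6 and common-chain systems 11 were measured, and 3 rose and 2 fell (median -0.14). These are 27.3% and 18.2%, near the 25.1% and 21.6% of all genes. The receptor chains OSMR and LIFR, which pair with gp130, rose by 1.26 and 1.19 and the orphan receptor CRLF3 by 1.12. The ligands CSF3 and LIF fell by 1.05 and 0.60. LIF read 9.34, 9.31, 9.02 and 9.42 in the RWDD4 clones and 10.13, 9.81, 9.95 and 9.59 in the control clones, while LIFR read 6.05, 5.11, 6.14 and 6.19 in the RWDD4 clones and 4.70, 4.77, 4.91 and 4.36 in the control clones. Neither gene overlapped between the groups.

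Of 20 adaptors and regulators of IL-1 and IL-17 receptors 13 were measured, and 4 rose and 5 fell (median -0.042). These are 30.8% and 38.5%, and 10 of the 13 had a mean above 6, where 38.4% of all genes rose and 28.7% fell. The falls numbered 3 without RWDD4 clone 5 or 6 or control clone 3. The kinase MAP3K7, also called TAK1, rose by 1.61, its partners TAB2 and TAB3 by 1.27 and 1.23 and the ubiquitin ligase PELI1 by 1.05. SIGIRR, an inhibitory receptor of the IL-1 family, fell by 0.59 and the inhibitor TOLLIP by 0.50. The dimmer inflammasome adaptor PYCARD (mean 5.35) fell by 0.46 and TAB1 by 0.43, with IRAK2 the other of the 5 at -0.28. MYD88 and IRAK1 did not pass, at -0.17 and 0.077. Among 28 further genes linked to chemokines 20 were measured, and 2 rose and 3 fell (10% and 15%, against 25.1% and 21.6% of all genes), with a median difference of -0.12. With the span trend removed 1 rose and 7 fell. There was also 1 rise after quantile normalization, in a fit over all probe sets, and without RWDD4 clone 17, 5 or 6 or control clone 2 or 4. CMTM6 and CMTM4 rose by 1.10 and 0.51. The receptor kinase GRK6, CMTM8 and the dim chemokine XCL2 (mean 4.17) fell by 0.56, 0.42 and 0.35. CX3CL1 and the scavenging receptor ACKR3 did not pass, at -0.18 and -0.19.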

How the data were processed

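RNA of 8 PC-3 clones, 4 per group by their labels, was measured on 1 Affymetrix array each. The authors deposited log2 values, made with Partek and RMA, per the submitters' processing notes. Their versions and settings, the genome build and any batch or scan date were not given in the sources used here. The number of arrays limits the precision. Of 53617 probe sets 16098 carried a single gene symbol, for 14884 genes. The 37519 without one were not used beyond scaling and 1 alternative. The probe set with the highest mean stood for a gene.

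A model with the group as its only term was fitted to all genes by limma 3.58.1 (lmFit, eBayes) under R 4.3.3. Tests were two-sided, and p-values were adjusted over 14884 genes by the Benjamini-Hochberg method. Promoters came from RefSeq (GRCh38.p14). The steps were tested on simulated data, where for the fit the noise was independent between genes. Those data held no axis shared by genes, so the test does not cover the effect of such an axis on the calls. P-values set the difference between the groups against the spread between clones of a group. The labels call the clones separate isolates. The members, roles and gene lists were chosen with earlier results of these data known. Named are all members with a mean above 6 and all dimmer members that passed. Single clones are given for those above 6 that passed, the 6 largest differences among those that did not, and the 4 largest among the dimmer ones that passed. Values per group or clone of CXCL2, SOCS3, LIF, LIFR, IL33 and CXCL10 and differences of other members and list genes that did not pass were added after they were seen. From lists, all members that passed are named, or the 4 largest per direction.

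Alternatives were another variance model, the mean of a gene's probe sets, a mean above 5, 3 scalings, array weights, a fit over all probe sets, removal of each array's lowess trend (span 0.3) over genomic span, the within-group axis as a term of the model, and leaving out each clone.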

Additional observations from a re-analysis of the deposited data

Results flagged for a closer look

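In 4 of 74 sets of 4 clones (37 named members in 2 groups) 1 clone lay apart from the other 3 by Dixon's test at its 95% limit. Chance would flag about 1 in 20 sets. Control clone 5 read 9.53 for IL17RA, against 8.87 to 8.94 in the other control clones. RWDD4 clone 6 read 7.64 for IL6R, against 7.30 to 7.32 in the other RWDD4 clones, and 6.60 for IL27, against 6.99 to 7.05. RWDD4 clone 24 read 3.79 for IL31, against 3.47 to 3.52. Of the calls concerned, those of IL6R and IL27 ended without that clone, while IL17RA passed without control clone 5 and IL31 without RWDD4 clone 24.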

How the results depend on the processing

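Over 18 alternatives, 7 called members (IL17RD, IL18R1, IL4R, IL32, CXCL3, IL17D and IL21R) kept their direction and call in all but the fit that held each array's place on the within-group axis. There 0 members rose and 0 fell, as did 0 genes of each of the 4 signalling lists. The differences of IL17RC (0.24), IL6R (-0.035), IL18R1 (-0.030), CXCR4 (-0.45), IL1RL1 (-0.20), IL7R (-0.81), CCL25 (0.37) and IL18 (-0.17) turned round in it, none past the threshold. The cause was not tested. That fit leaves fewer degrees of freedom, and the groups did not overlap on the axis.

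With cyclic loess 7 members rose and 11 fell (8 fell above 6, and 4 rose and 3 fell at or below it). Median centring left 15 falls, 8 of them above 6, and 2 rises at or below 6. A fit over all probe sets left 15 falls, 8 of them above 6. With the span trend removed 7 members rose, 4 of them at or below 6, and 9 of those above 6 fell. Quantile normalization gave 3 rises at or below 6, array weights 2, and a minimum mean of 5 left 4 falls there, since fewer genes were tested. For the other settings the cause was not tested. Shares of all genes called under the settings of this paragraph are not given. Leaving out a clone gave 2 to 5 rises and 13 to 21 falls over all members, 7 to 12 falls above 6, and 0 to 2 rises and 4 to 10 falls at or below 6. The smallest counts came without RWDD4 clone 5 or 6 for falls and without RWDD4 clone 6 or control clone 4 for rises.

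In the lists, quantile normalization gave 4 falls among JAK, STAT and SOCS genes and 1 rise among the further chemokine genes, where a fit over all probe sets also gave 1. Removing the span trend gave 8 falls among JAK, STAT and SOCS genes and 7 falls and 1 rise among the further chemokine genes. Without single clones the falls were 1 to 3 among JAK, STAT and SOCS genes and 3 to 4 among the adaptors, and the rises were 1 to 2 among the further chemokine genes.

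Small differences changed sign without passing. IL18BP became 0.0092 after median centring, 0.027 after cyclic loess, 0.17 with the span trend removed and -0.13 to 0.069 without single clones. With the span trend removed CCL3L1, CXCL16 and IL37 became 0.033, 0.18 and 0.11. IL18 became -0.024 after quantile normalization. Without single clones IL18 ran from -0.21 to 0.37, CXCL16 from -0.28 to 0.13 and IL37 from -0.27 to 0.032.

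At 5, 7 or the median of all probe sets in place of 6, 52, 10 or 55 members lay above the threshold. No paired analysis was possible because the groups share only clone number 5, which names unrelated isolates.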
